A study of Mus musculus with 9 samples.

Results

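Start sites of protein-coding genes made up 5246 of the 34038 anchors of the CTCF chromatin interactions called in mouse embryonic stem cells, or 15.4% (95% Wilson interval 15.03 to 15.8). An anchor is a 1 kb bin at either end of a called interaction. It was taken as a start-site anchor when it held the first base of at least 1 protein-coding transcript of the GENCODE M21 annotation on mm10, and the other 28792 anchors served for comparison. These anchors belonged to 5220 of 21877 protein-coding genes (23.9%). Starts lay on the forward strand only in 2457 of them, on the reverse strand only in 2382, and on both strands in 407.

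The interactions came from MNase HiChIP, in which chromatin cut by micrococcal nuclease is ligated in the nucleus and enriched with an antibody, so that joined DNA ends report contacts of the antibody's target. All 9 libraries were made from E14 mouse embryonic stem cells of the genotype labelled CTCF AID, in which an auxin-inducible degron, a tag that lets auxin trigger breakdown of a protein, is joined to CTCF, grown without serum with LIF and the inhibitors PD0325901 and CHIR99021. Untreated cells were profiled with antibodies to CTCF (2 libraries), to the cohesin subunit RAD21 (3 libraries) and to H3K27ac (2 libraries), and cells given the auxin IAA for 12 h with the antibody to H3K27ac (2 libraries). The untreated cells carry the same degron, and no label says whether the cells are 1 clone. The authors deposited 1 list of called interactions per group, pooled over its libraries, so no value below has an error between replicates, and the intervals given cover counting error only. CTCF protein was not analysed here, nor were CTCF or RAD21 interactions after IAA. The CTCF list held 49630 interactions, the RAD21 list 23630, and the H3K27ac lists 36274 without and 28210 after IAA. The median contact count per interaction was 13 to 14 in all 4. The lists hold only pairs past a q-value of 0.05, so a pair that is not listed is one that was not called.

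CTCF is a zinc finger protein that binds a directional DNA motif, and cohesin, a ring-shaped complex, extrudes chromatin loops until it meets CTCF. Loops therefore tend to form between motifs that point at each other. Promoters can be anchors of such loops, and H3K27ac marks active promoters and enhancers.

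Sequences of the anchors with most partners are shown first, with the place most like the CTCF motif at both ends of a loop, because these start sites hold the most interactions. Each bin was searched on both strands for the place most like the CTCF core motif, a pattern of 14 bases. The 6 start-site anchors with the most partners were Faap20, Cirbp, Tor2a, Bcl2l1, Vps18 and Snrpe. Of these, 4 had a strongest partner that matched the core without a mismatch, and these 4 loops are printed. Sequence was read from the RefSeq genome GRCm38.p6, is written 5′ to 3′ on the strand of the match, and has the match in capitals. Windows are 100 bases, or 30 where the longer window touches an annotated exon.
Faap20 anchor: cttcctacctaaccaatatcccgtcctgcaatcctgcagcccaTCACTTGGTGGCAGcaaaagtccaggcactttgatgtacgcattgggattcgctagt
Faap20 partner in Morn1: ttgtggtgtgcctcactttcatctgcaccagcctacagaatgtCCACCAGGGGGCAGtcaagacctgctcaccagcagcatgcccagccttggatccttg
Tor2a anchor: gcgggcagCCGGCAGTTCGCAGgggctcga
Tor2a partner in Cdk9: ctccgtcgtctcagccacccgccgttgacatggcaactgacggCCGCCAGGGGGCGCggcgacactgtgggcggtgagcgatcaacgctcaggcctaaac
Bcl2l1 anchor: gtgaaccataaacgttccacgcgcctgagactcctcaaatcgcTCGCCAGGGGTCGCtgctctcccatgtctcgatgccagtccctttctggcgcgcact
Bcl2l1 partner in H13: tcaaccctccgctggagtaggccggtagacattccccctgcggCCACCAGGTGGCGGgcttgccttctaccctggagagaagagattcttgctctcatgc
Snrpe anchor: tcagcctaCCTCCAGGTGGCGCtgtaggac
Snrpe partner in Sox13: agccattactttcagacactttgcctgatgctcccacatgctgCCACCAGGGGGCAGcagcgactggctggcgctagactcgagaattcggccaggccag
The start-site windows lie at chr4:155249384-155249483, reverse strand (Faap20), chr2:32757478-32757507, forward strand (Tor2a), chr2:152831732-152831831, reverse strand (Bcl2l1) and chr1:133610425-133610454, reverse strand (Snrpe). Their partners lie at chr4:155095387-155095486, forward strand, chr2:32713620-32713719, forward strand, chr2:152696903-152697002, forward strand and chr1:133382177-133382276, forward strand, none of them within an annotated exon. All 4 partners lie at lower coordinates than the gene and have the match on the forward strand, so that it points at the start site. At the start sites the best match had 2 mismatches for Faap20, Tor2a and Bcl2l1 and 1 for Snrpe. Of the matches with 2 mismatches, Faap20 and Bcl2l1 had 3 each and Tor2a had 4, and the one nearest the middle of the bin is shown. No place in these 3 start-site bins came within 1 mismatch of the core, so the capitals there mark only the nearest match and not a motif. The Snrpe match, at -148 bp from the nearest start, was on the reverse strand, as is the gene, and points back at its partner.

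A second set of sequences is from the Hox genes, which encode the transcription factors that pattern the body axis. These were singled out after their values were seen. Of the 39 Hox genes 8 had a start-site anchor, and 5 of these anchors had 5 or more partners. Sequences of 3 of them with a core match of 1 mismatch are printed, from the same genome and in the same way.
Hoxa5: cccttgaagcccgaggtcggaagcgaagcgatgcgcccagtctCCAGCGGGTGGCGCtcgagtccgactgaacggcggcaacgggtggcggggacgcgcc
Hoxa7: agaaaattCCAGGAGATGGCAGtgtggctc
Hoxb5: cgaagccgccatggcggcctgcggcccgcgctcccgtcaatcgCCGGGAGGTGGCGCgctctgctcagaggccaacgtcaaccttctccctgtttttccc
They lie at chr6:52204614-52204713, reverse strand, chr6:52221799-52221828, reverse strand and chr11:96303202-96303301, forward strand. Each of these 3 matches is on the strand of its gene. Hoxa7 had 26 partners, of which 26 lay at lower coordinates, and Hoxa5 had 20 of its 21 there; both genes are on the reverse strand. On the forward strand, Hoxb5 had 13 of 14 partners at higher coordinates and Hoxc10 had 19 of 22. Hoxc5, on the forward strand and with no core match of up to 1 mismatch, had 7 of 9 there. Over these 5 anchors 85 of 92 interactions ran in the direction of transcription, or 92.4% (85.1 to 96.3). These anchors lie in 3 gene clusters, so they are not independent of one another. Hoxa5, Hoxa7, Hoxb5 and Hoxc5 had no called H3K27ac interaction in either list, and Hoxc10 had 2 without and 0 after IAA.

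Start-site anchors had fewer CTCF partners than other anchors, with a mean of 2.45 against 3.00. A single partner was called for 2727 of them (52.0%), against 44.7% of the other anchors. At the upper end, 610 had 5 or more and 177 had 10 or more (3.37%, against 5.06% elsewhere). The partner number moved with the deposited coverage of the anchor, whose median was 854 at start sites and 1266 elsewhere. All anchors were split by coverage into 4 classes of like size, with limits at 667, 1190 and 2217. In the lowest class, start-site anchors had slightly more partners (mean 1.33 against 1.20). In the highest class they had fewer (5.52 against 6.41), and in between the means were 1.675 against 1.60 and 2.025 against 2.58. The order thus turned with coverage, while the mean over all coverages was lower at start sites on 20 of 20 chromosomes.

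**Figure D1:**
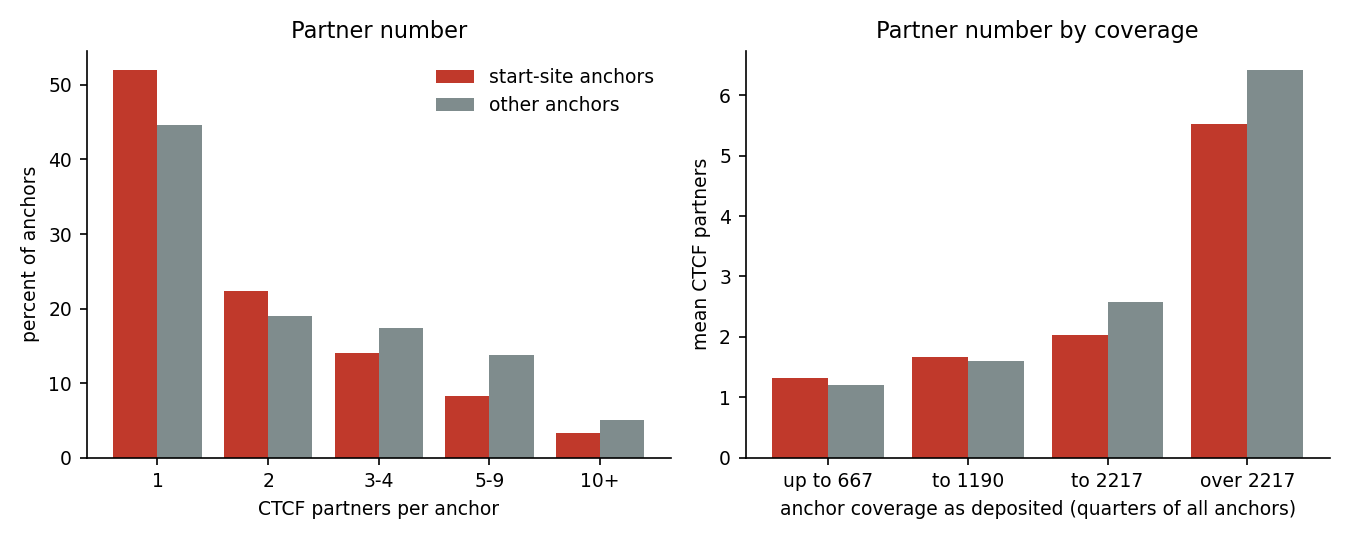
Left, percent of CTCF anchors (y axis) with 1, 2, 3 to 4, 5 to 9 and 10 or more CTCF partners (x axis), for 5246 start-site anchors (red) and 28792 other anchors (grey). Right, mean number of partners (y axis) by class of deposited anchor coverage (x axis, limits at 667, 1190 and 2217), where red is above grey in the lower 2 classes and below it in the upper 2.

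Partners of start-site anchors lay closer. The 11498 interactions with a start-site anchor had a median span of 108 kb (105 to 110), against 162 kb (160 to 164) for the 38132 without one. In 1343 of them (11.7%) both ends were start-site anchors, and their median span was 76.0 kb (70.0 to 83.0). Seen from the anchor, 20.9% of the partners of start-site anchors were start-site anchors too, while other anchors had such a partner in 11.8% of cases. A further 38.0% lay elsewhere in a protein-coding gene and 41.1% outside such genes. The partner was in the body of the same gene in 8.58% (8.11 to 9.08), at a median span of 32.0 kb. Among anchors with 2 or more partners, 57.6% of start-site anchors had partners on both sides, against 38.4% of the others.

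The 4 start-to-start interactions with most contacts were the following. H13, a gene for the signal peptide peptidase, and Bcl2l1, for the anti-apoptotic protein BCL-XL, were joined over 162 kb by 206 contacts, where the authors' model predicted 7.29. RAD21 gave 135 contacts at the same bins. Zfp786 and Zfp398, a pair of zinc finger genes 5.0 kb apart, had 163 CTCF contacts, where 62.55 were predicted, and 37 RAD21 contacts. Pigo, an enzyme of GPI anchor synthesis, and Stoml2, a mitochondrial membrane protein, had 137 CTCF contacts (25.2 predicted) and 22 RAD21 contacts over 6.0 kb. Chd8, a chromatin remodeller, and the bin with the starts of Rab2b and Tox4 had 132 CTCF contacts (17.9 predicted) over 22 kb and were not in the RAD21 list. All 4 thus spanned 162 kb or less.

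An exact match to a 12-base CTCF motif, read as CCA, 2 bases of any kind, AG, 2 more of any kind and GGC on either strand, was found in 13.6% (12.7 to 14.6) of start-site anchors and in 39.9% (39.4 to 40.5) of other anchors. The share was 6.83% in all 1 kb start-site bins of the genome, 5.61% in those that were no CTCF anchor, and 5.12% in all 1 kb bins of the genome. The core motif with up to 1 mismatch, which overlaps this motif, was in 22.9% of start-site and 45.1% of other anchors, against 7.69% of all start-site bins and 2.75% of all bins. Neither was found in 3730 start-site anchors. The motif share was lower at start sites than at other anchors on 20 of 20 chromosomes. Base composition differed as well, with a median of 58.2% GC and 57.0 CpG dinucleotides per start-site anchor against 47.3% and 13.0. Among start-site anchors the core was more frequent where partners were many. It was present in 15.2% of those with 1 partner, 23.6% with 2 to 4, 52.9% with 5 to 9 and 60.45% with 10 or more. Other anchors had 31.2%, 49.35%, 68.3% and 74.3% in these classes.

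Where a start-site anchor had the motif, matches were most frequent just upstream of the start. Over 731 matches in anchors with starts on 1 strand, the median position was -62.5 bp from the nearest start and 61.0% (57.4 to 64.5) were upstream. Matches within 100 bp of the start numbered 215, or 29.4%. Each match shares a 1 kb bin with a start, so closeness to it is partly set by the rule. Positions in start-site bins that were no CTCF anchor were not compared. The motif lay on the strand of the gene in 370 of 673 anchors with matches on 1 strand only, or 55.0% (51.2 to 58.7). With the core motif it did in 664 of 1103, or 60.2% (57.3 to 63.1).

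Interactions left start-site anchors in the direction of transcription as often as against it. Of 11944 interactions at anchors with starts on 1 strand, 5954 ran downstream, or 49.85% (48.95 to 50.75). The strand of the motif divided them. With the motif on the strand of the gene, 64.5% (61.7 to 67.1) of 1216 interactions ran downstream, and with the motif on the opposite strand 31.2% (28.5 to 34.1) of 1025 did. For the core motif the shares were 65.65% (63.8 to 67.4) and 26.05% (23.97 to 28.24). Without either motif the share was 49.5% (48.3 to 50.7). Interactions of 1 anchor are not independent, so the anchors were counted too. Of 370 anchors with the motif on the strand of the gene, 215 had more partners downstream and 124 upstream. Of 303 with the opposite strand, 82 had more downstream and 186 upstream. Anchors with a single partner had it downstream in 46.9% (44.9 to 48.8).

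**Figure D2:**
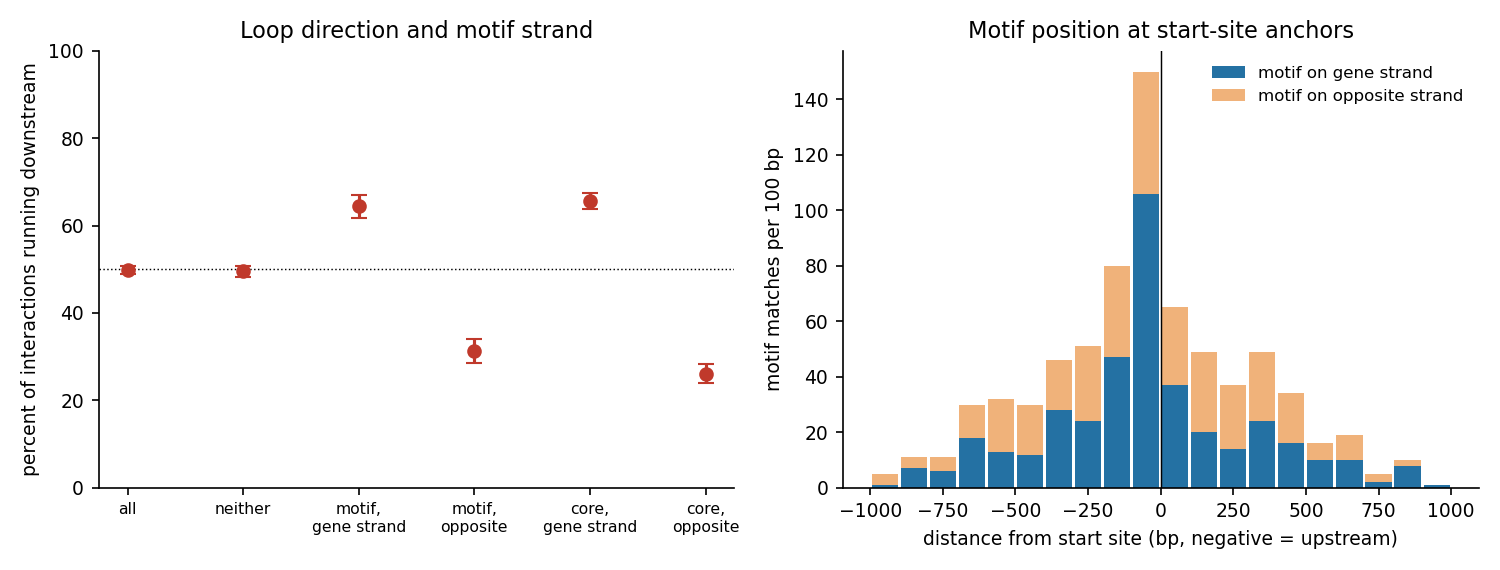
Left, percent of CTCF interactions that run downstream of the gene (y axis, 95% Wilson intervals) for start-site anchors grouped by motif or core motif and its strand; points for the gene strand sit near 65 and points for the opposite strand between 26.05 and 31.2. Right, number of motif matches per 100 bp (y axis) by distance from the start site (x axis, bp), split by strand relative to the gene; the tallest bar is the one just upstream of the start.

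The motif agreed less often with loop direction at start sites than elsewhere. Interactions ran the way the motif points in 66.5% (64.6 to 68.4) of 2348 cases at start-site anchors and in 81.9% (81.5 to 82.3) of 38796 at other anchors. The gap was there in each class of coverage, from 55.2% against 79.9% in the lowest to 69.2% against 81.1% in the highest. With the core motif the shares were 68.75% and 84.4%. At the far end, where the strongest partner had the core on 1 strand only, it pointed at the start-site anchor in 79.98% (78.0 to 81.8) of anchors with 1 partner and in 86.7% (78.9 to 91.9) with 10 or more. At other anchors these shares were 92.3% (91.7 to 92.8) and 91.6% (89.7 to 93.2), so the intervals were apart with 1 partner and overlapped with 10 or more. With 2 to 4 partners the shares were 76.1% (73.6 to 78.4) at start-site and 90.96% (90.3 to 91.6) at other anchors. With 5 to 9 they were 80.0% (74.9 to 84.3) and 89.9% (88.7 to 90.97). The intervals were apart in both, and the overlap with 10 or more rests on 105 start-site anchors.

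RAD21 was found at start-site interactions less often than at others. The same pair of bins was in the RAD21 list for 3361 of the 11498 interactions, or 29.2% (28.4 to 30.1), and for 35.9% (35.45 to 36.42) of interactions without a start-site anchor. It was lower again, at 22.5% (20.3 to 24.8), when both ends were start sites. The RAD21 list is shorter and rests on fewer contacts, and the share climbed with the CTCF contact count. At 25 or more contacts it was 67.2% (65.26 to 69.15) with a start-site anchor, 81.3% (80.4 to 82.2) without, and 50.5% (44.8 to 56.2) with start sites at both ends. Of 16 classes of span and contact count, the share was lower with a start-site anchor in 13. Interactions without one, weighted to the same spans and contacts, gave 33.4%. The share was lower at start sites on 20 of 20 chromosomes. Among interactions with a motif or core at both ends, the shares were 38.8% (37.08 to 40.55) and 42.2% (41.4 to 42.9).

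As anchors, whatever the partner, 45.6% (44.2 to 46.9) of start-site bins were also RAD21 anchors, against 53.7% of the others. This order turned in the lowest class of coverage, where the shares were 23.5% (21.6 to 25.5) and 15.8% (14.97 to 16.71). In the highest class they were 81.5% and 88.2%.

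**Figure D3:**
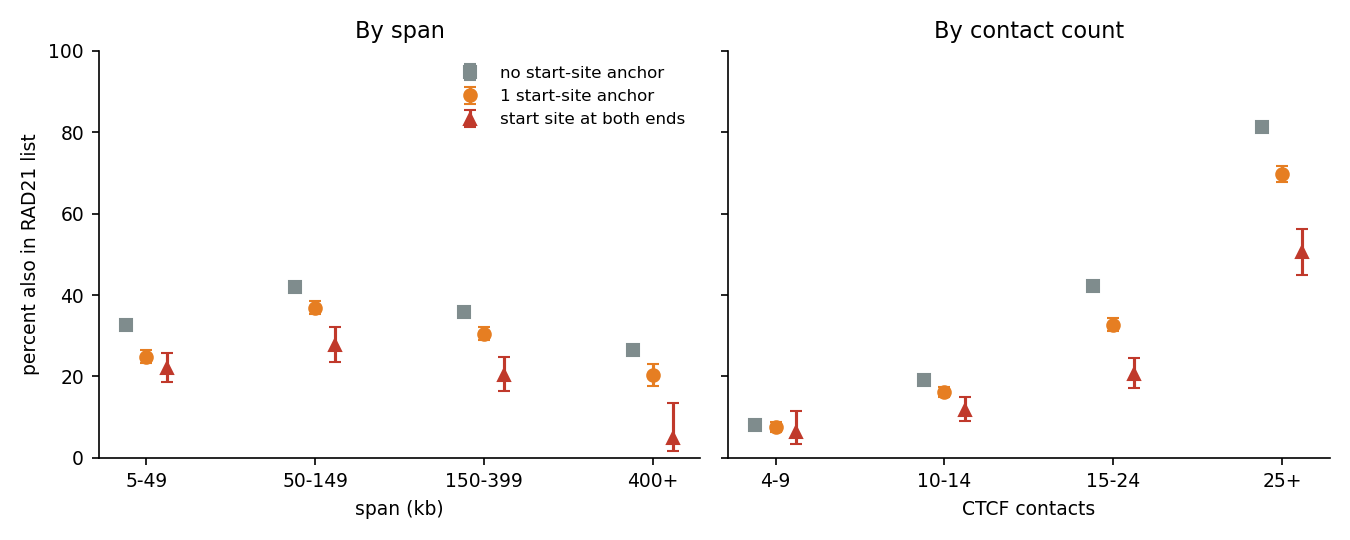
Percent of CTCF interactions also in the RAD21 list (y axis, 95% Wilson intervals) by span in kb (left) and by CTCF contacts (right), for interactions with no start-site anchor (grey squares), 1 (orange circles) or 2 (red triangles). Within each class shown the points fall in that order, and at 25 or more contacts they are at 81.3, 69.7 and 50.5.

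Among the start-site anchors with most partners, Faap20, a gene of the Fanconi anaemia DNA repair complex, led with 34. Its strongest partner, in Morn1 154 kb away, had 402 CTCF and 348 RAD21 contacts. Cirbp, a cold-inducible RNA-binding protein, had 32 partners, of which 27 lay at lower coordinates, upstream of the gene. Tor2a, a torsin ATPase, also had 32, and the strongest, in Cdk9, had 241 contacts. Bcl2l1 had 31 partners with 1405 contacts in all, the highest sum among the genes named, and 28 of them lay downstream. Vps18, a subunit of complexes that tether endosomes, had 28, and 12 of these were start-site anchors. Snrpe, a core protein of the spliceosome, had 24 of 27 partners downstream. The groups differ in direction, since Faap20 and Cirbp reached mostly upstream while Bcl2l1 and Snrpe reached mostly downstream.

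The 6 anchors next by summed contacts were Dhx8, Pik3r2, Radil, Zbtb45, Pts and Ankrd39. Dhx8, an RNA helicase of splicing, had 16 partners, and the strongest, outside protein-coding genes 74.0 kb away, had 396 contacts. The next strongest, with 305, was the touching bin. Touching bins count as separate partners in these numbers, so partners are not all distinct loops. Pik3r2, a regulatory subunit of phosphoinositide 3-kinase, had 24 partners and Radil, an effector of the small GTPase Rap, had 25. Zbtb45, a zinc finger protein, had 24, of which 10 were start-site anchors. Pts, an enzyme of tetrahydrobiopterin synthesis, had 19. Ankrd39, an ankyrin repeat protein, had 23 of 25 at higher coordinates, upstream of the gene. Over these 12 anchors, RAD21 was listed for 127 of 317 interactions, or 40.1%. In none of the 12 start-site bins was the core motif complete, with 1 mismatch in 6 and 2 in the other 6. At their strongest partners it was complete in 6 of 12. Over all 177 start-site anchors with 10 or more partners, the core was complete in 17.5% of the anchors and in 22.03% (16.6 to 28.7) of the strongest partners. The share at strongest partners was 23.3% (21.7 to 24.9) for start-site anchors with 1 partner and 29.6% (27.3 to 31.95) for other anchors with 10 or more. Over all other CTCF anchors the core was complete in 13.9%, and over all 1 kb bins of the genome in 0.2895%.

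**Figure D4:**
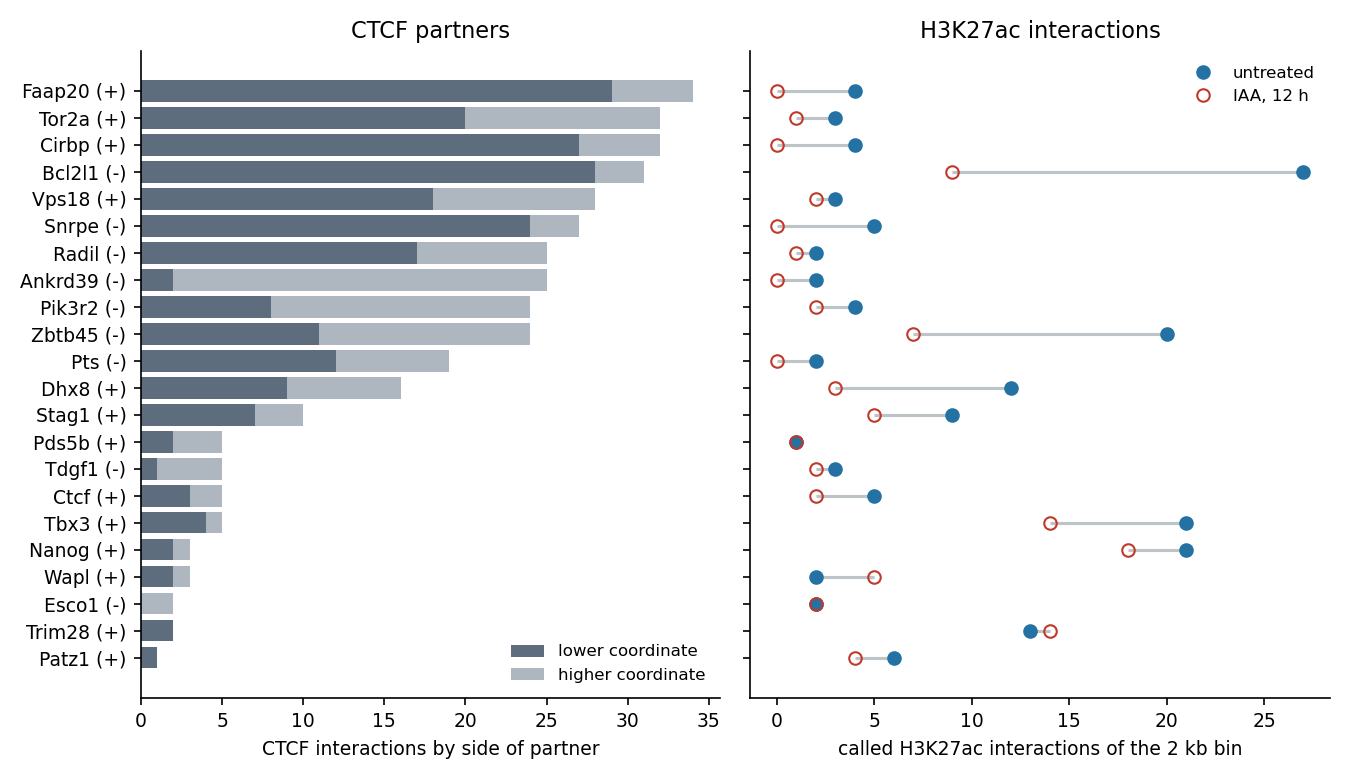
Left, number of CTCF interactions (x axis) of named start-site anchors (y axis, gene and strand), split by the side on which the partner lies. Right, number of called H3K27ac interactions (x axis) of the same 2 kb bins without treatment (blue dots) and after 12 h of IAA (open red circles); at the 12 genes at the top, from Faap20 to Dhx8, each open circle lies left of the dot.

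Gene lists were compared by the share of their genes with a start-site anchor, beside 23.9% of all protein-coding genes. Genes of CTCF, cohesin and their regulators had one in 12 of 25 cases (48.0%), ribosomal protein genes in 38 of 85 (44.7%), protocadherins in 25 of 57 (43.9%), pluripotency genes in 17 of 40 (42.5%) and zinc finger genes in 108 of 397 (27.2%). Below the share of all genes were Hox genes with 8 of 39 (20.5%), other developmental transcription factors with 12 of 68 (17.65%), histone genes with 9 of 67 (13.4%) and olfactory receptors with 2 of 1143 (0.175%). The interval held the share of all genes for Hox genes (10.8 to 35.5), other developmental factors (10.4 to 28.4) and zinc finger genes (23.1 to 31.8). These lists are thus not told apart from all genes. The median partner number was 11.5 for the Hox genes with an anchor and 1.0 over all genes with one. It was 2.0 for ribosomal protein genes, 2.5 for the olfactory receptors, and 1.0 for the other lists.

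Of the cohesin list, Stag1, a subunit of cohesin, had the most partners, with 10, of which 7 lay upstream although its 2 motif matches were on the strand of the gene. Pds5b, a regulatory factor of cohesin, had 5 partners and 147 contacts, with a complete core match on the strand of the gene. Esco1, which acetylates cohesin, had 117 contacts with 2 partners at 7.0 and 8.0 kb, neither in the RAD21 list. The start of Ctcf itself had 5 partners with 105 contacts. Wapl, which releases cohesin from chromatin, had 3 partners, and Patz1, a zinc finger factor, had 1. Of the pluripotency genes, Tdgf1, a co-receptor of Nodal, had 5 partners and 106 contacts, and Tbx3, a transcription factor, had 5 and 82. Trim28, a co-repressor, had 2 partners with 75 contacts and Nanog, a core pluripotency factor, had 3 with 74. Most genes of this list had few contacts, such as Pou5f1 with 1 partner and 30 contacts and Klf4 with 1 and 13. The partners of Tdgf1 went against its motif, which lay on the reverse strand, since 4 of 5 were at higher coordinates.

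H3K27ac interactions are listed for 2 kb bins, and 5096 such bins held a start-site CTCF anchor. Of these, 54.4% (53.0 to 55.8) were anchors of the untreated H3K27ac list and 47.2% (45.85 to 48.6) of the list after IAA. Bins with another CTCF anchor were listed in 16.8% and 10.9%, and start-site bins without a CTCF anchor in 15.7% and 14.1%. Start-site CTCF anchors thus had H3K27ac interactions more often than either kind of bin. Where listed, they had a mean of 3.61 interactions without and 3.12 after IAA, and a median of 32.5 and 29.0 summed contacts. Of the 17 pluripotency genes with a CTCF anchor at the start, 16 were listed without IAA, among them Nanog with 21 interactions and Pou5f1 with 12. Of the 12 other developmental factors, 2 were.

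Over all start-site CTCF anchors, interaction ends went from 10006 to 7498, or to 74.9% of the untreated number. The whole lists went to 77.8%, bins with another CTCF anchor to 62.8%, and start-site bins without a CTCF anchor to 82.3%. This percentage was lower where CTCF partners were more numerous. Each 2 kb bin was classed by whichever of its CTCF anchors had the most partners, start-site anchor or not. The class of 10 or more held 209 start-site bins, against 177 start-site anchors with that many partners. In some of these bins the partners were thus those of a neighbouring anchor without a start. The percentage was 79.8% at start-site bins with 1 partner, 77.7% with 2 to 4, 62.7% with 5 to 9 and 47.0% with 10 or more. The last class went from 617 to 290 interaction ends, and its percentage was below that of the bins with 1 partner on 17 of 18 chromosomes. Bins with other CTCF anchors gave 76.4%, 66.8%, 47.0% and 35.2%, so the order was not confined to start sites. Median H3K27ac coverage of the start-site bins, as log2 of IAA over untreated relative to all listed bins, was between -0.12 and -0.10 in all 4 classes. Coverage is given only for listed bins, so bins that were no longer listed after IAA have no ratio. In the class of 10 or more partners, 144 bins were listed without and 100 after IAA.

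Single interactions were followed by asking whether the same pair of bins was called again after IAA. Of 8812 untreated H3K27ac interactions at start-site CTCF anchors, 3832 were, or 43.5% (42.45 to 44.5), against 42.7% of the 27462 others. Of these others, interactions at other CTCF anchors only were called again in 37.7% (36.7 to 38.75), those at start sites without a CTCF anchor in 44.6% (43.4 to 45.8) and the rest in 45.3% (44.4 to 46.1). When each anchor could differ by 1 bin, the order turned, with 59.85% against 67.6%. With 10 or more CTCF partners the share was 29.6% (26.1 to 33.3), against 45.7% (44.0 to 47.4) with 1. It was lower within each class of contact count. At 6 to 9 untreated contacts it was 6.86% against 19.7%, at 10 to 14 23.3% against 35.0%, at 15 to 24 50.4% against 58.8%, and at 25 or more 75.4% against 85.4%. In the last 2 classes the intervals overlapped. Interactions at the bin pair of a CTCF interaction were called again in 39.97% (37.3 to 42.7) of 1286 cases, against 44.1% (42.97 to 45.2) of the 7526 others at these anchors. With 10 or more CTCF partners the order turned, with 32.9% (27.9 to 38.3) of 307 at the bin pair of a CTCF interaction against 26.2% (21.5 to 31.4) of 302 others, and these intervals overlapped.

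**Figure D5:**
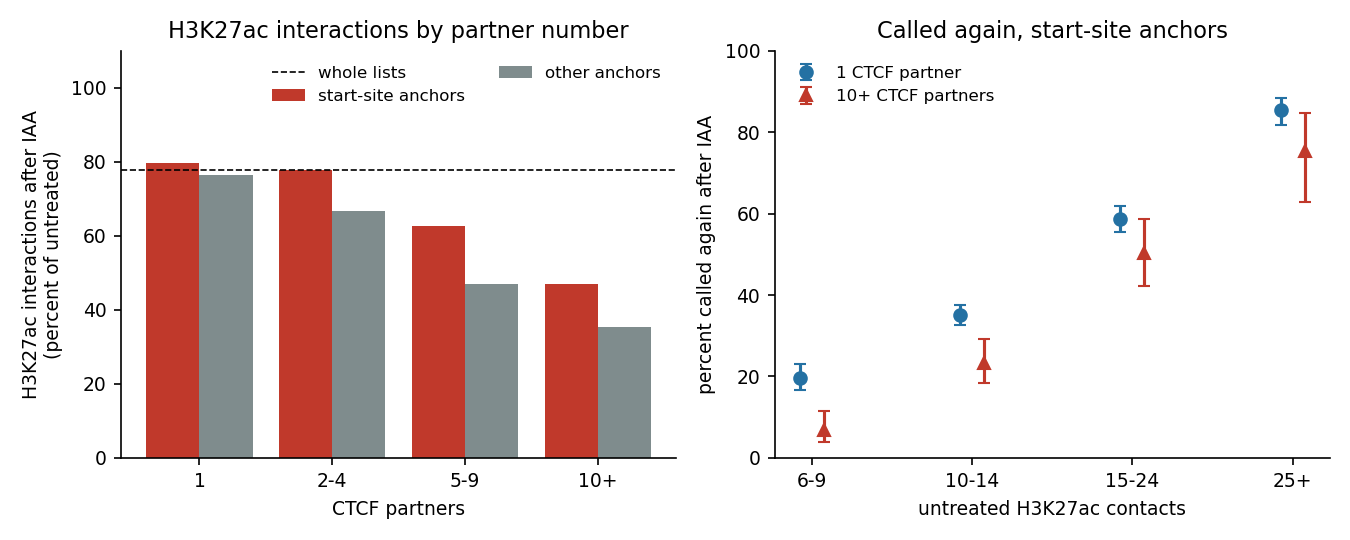
Left, number of called H3K27ac interaction ends after IAA as percent of untreated (y axis) by number of CTCF partners (x axis). The partner number is the highest of any CTCF anchor in the 2 kb bin. Red is bins with a start-site anchor, grey bins with other CTCF anchors only, and the dashed line the whole lists at 77.8. Red goes from 79.8 to 47.0. Right, percent of untreated H3K27ac interactions called again after IAA (y axis, 95% Wilson intervals) by untreated contacts (x axis) at start-site bins with 1 (blue circles) and with 10 or more CTCF partners (red triangles), which sit lower in each class.

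Contacts of the interactions called in both lists were compared relative to the totals over all shared interactions. At start-site CTCF anchors the median log2 ratio of IAA over untreated was -0.02 (-0.05 to 0.03), against 0.03 over all 15551 shared interactions. Divided by the coverage of both anchors, the order turned, with 0.057 at start-site anchors and -0.02 at the others. With 10 or more CTCF partners the median was -0.12 (-0.19 to -0.07), and at the bin pair of a CTCF interaction it was -0.15 (-0.21 to -0.10). These ratios leave out every pair that was called in 1 list only.

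Changes in contacts were tested with a two-sided exact binomial test, adjusted by the method of Benjamini and Hochberg over the whole table, which compares 2 pooled lists and not the conditions. It called 2 of 3832 shared interactions at start-site anchors (0.0522%), beside 0.135% of all shared interactions. Of these, 1 was lower, beside 0.0386% of all, and 1 higher, beside 0.0965% of all. Contacts summed per 2 kb bin were called in 5 of 1783 bins (0.2804%), beside 0.676% of all bins. Here 3 were lower, beside 0.22% of all bins, and 2 higher, beside 0.456% of all, so calls were no more frequent than over all bins. Without adjustment, 111 of the 1783 bins (6.225%) had a p-value under 0.05, beside 752 of all 13607 bins (5.527%). Of the 111, 85 were lower and 26 higher. Of the 752, 404 were lower (2.97% of all bins) and 348 higher (2.56% of all), so lower bins made up a larger part at start-site anchors. Scaling by the contacts of the authors' model moved the median of all shared interactions by -0.25, and then 83 of the 1783 bins (4.655%) were called, beside 448 of all 13607 (3.292%). All 83 were lower, beside 3.16% of all bins. The same scaling called 11 of the 3832 interactions (0.2871%), beside 60 of all 15551 (0.3858%), and all 11 were lower, beside 0.347% of all.

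Of the 5 called bins, Dhx8 had the lowest log2 ratio, from a single shared interaction that went from 36 to 10 contacts (log2 ratio -1.82, interval -3.00 to -0.78, adjusted p 0.0269). The same contacts were not called in the test of single pairs. Its called H3K27ac interactions went from 12 to 3. Rpl7l1, a gene related to ribosomal protein L7, went from 236 to 156 shared contacts (-0.57, adjusted p 0.0212), while its number of interactions went from 16 to 15. Cox20, an assembly factor of cytochrome c oxidase, went from 381 to 272 (-0.46, adjusted p 0.0124). In the other direction, Zfp219, a zinc finger protein, went from 36 to 75 (1.09, adjusted p 0.0225), and 1 of its pairs, over 48 kb, from 10 to 39. Its anchor coverage went from 5098 to 6530 and that of the partner from 5350 to 6468. Fignl1, an ATPase of recombination repair, went from 370 to 482 over 19 shared interactions (0.41, adjusted p 0.00841) and was named after its values were seen. The other single pair called was at Senp3, a SUMO protease, with 59 and 18 contacts to a bin 32.0 kb away (-1.68, adjusted p 0.00516). That pair was also a CTCF interaction, with 141 CTCF and 84 RAD21 contacts, whereas the Zfp219 pair was not in the CTCF list.

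The 12 start-site anchors named for partners or contacts went together from 88 called H3K27ac interactions to 25, with fewer in 12 of 12. Of the 88, 27 were at Bcl2l1 and 20 at Zbtb45. Over all 146 listed start-site bins in the class of 10 or more CTCF partners, 117 (80.1%) had fewer, so nothing is read from the count of 12 beyond that share. Bcl2l1 went from 27 interactions with 422 contacts to 9 with 157. All 27 untreated partners lay downstream of the gene, and 13 of these bin pairs were CTCF interactions. The strongest, in H13 134 kb away, had 42 contacts without and 14 after IAA. The start of H13 went from 21 to 8 and that of Mcts2 from 31 to 21, while a bin 10 kb from the gene went from 37 to 47. The 3 pairs with H13 and Mcts2 were thus lower and the one at 10 kb higher. Among the other shared pairs, the start of Id1, 94.0 kb away, went from 8 to 9. A bin at 26.0 kb went from 16 to 21 and a bin at 58.0 kb from 16 to 13. Over the 7 shared interactions of Bcl2l1 the sums of 171 and 133 were not called (log2 ratio -0.33, interval -0.67 to 0.0019, adjusted p 0.901). Zbtb45 went from 20 interactions to 7 and from 367 to 117 contacts. Its pair with the start of Trim28 had 48 and 29 contacts. Over the 6 shared interactions of Zbtb45 the sums of 125 and 108 were not called (log2 ratio -0.18, interval -0.57 to 0.20).

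Another 5 anchors of this set were no longer listed after IAA. These were Faap20 (4 interactions without IAA), Cirbp (4), Snrpe (5), Ankrd39 (2) and Pts (2), which had 16 (Ankrd39) to 61 (Cirbp) contacts before, beside the median of 32.5 over listed start-site bins. The remaining genes went from 12 to 3 at Dhx8, 4 to 2 at Pik3r2, 3 to 1 at Tor2a, 3 to 2 at Vps18 and 2 to 1 at Radil. Among the pluripotency and cohesin genes, Nanog went from 21 to 18, with 294 and 300 contacts over 15 shared interactions (log2 ratio 0.06, interval -0.18 to 0.30, adjusted p 1.0). Tbx3 went from 21 to 14, Trim28 from 13 to 14, Stag1 from 9 to 5, Ctcf from 5 to 2 and Wapl from 2 to 5. None of these 6 bins was called by the test.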

How the data were processed

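Per the labels, 9 MNase HiChIP libraries fall into 4 groups, and the authors deposited 1 interaction list per group, pooled over replicates. Per the file headers, each pair of bins carries a contact count and bin coverage (whole-number counts, not normalised), the deposited signal of a model (predicted contacts), a model probability (a fraction), and a deposited p-value and q-value, all q-values at most 0.05. Bins are 1 kb for CTCF and RAD21 and 2 kb for H3K27ac. The build mm10 and the tools Trim Galore, BWA, MACS2 and deepTools are named in the submitters' processing notes, without versions; their settings are not given in the sources used here. From these lists, anchors, partners, spans and overlaps at the same bins were counted with python 3.11.15, pandas 2.3.3 and scipy 1.17.1, sequence was read with pysam 0.24.0, and shares were given 95% Wilson intervals, which assume independent counts. A bin's interaction directions were scored only where its starts lay on 1 strand. The binomial tests took the expected split from the totals over shared interactions and were checked on simulated data. Coordinates count from 1. Depth enters through the contact counts, and the model totals were 2839756 contacts for CTCF, 1517698 for RAD21, and 12551236 and 14629323 for H3K27ac without and after IAA.

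The genes named were the 6 start-site anchors with most partners, the next 6 by contacts, up to 10 of the pluripotency and cohesin lists by contacts, up to 6 with a called H3K27ac bin or pair, and the 4 strongest start-to-start interactions, passing over genes named only by clone. The Hox and ribosomal protein genes, Pou5f1, Klf4 and Fignl1 were named outside this rule, after their values were seen. Members and lists were chosen with earlier results of these data known. Alternatives changed the definition of a start, the q threshold, bin tolerance and merging, the comparison bins, minimum contacts, scaling and the motif. Some items are not reported here.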

Additional observations from a re-analysis of the deposited data

How the results depend on the processing

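Of 38 alternative values, 18 stayed within the interval of the value reported (or within 1.5 times for counts), 18 moved without turning, and 2 turned. With 1 start per gene, 12.2% of anchors were start-site anchors, 9.72% of their interactions joined 2 start sites and 55.9% of the bins were in the untreated H3K27ac list. With a q-value of 0.01 or less, mean partners were 2.22 (others 2.70), RAD21 held 30.9% of interactions (37.6%) and 43.6% of anchors (54.0%). With touching bins merged, mean partners were 2.61 (2.945), the median span 113 kb (175), start-to-start interactions 14.3%, and RAD21 held 32.97% of interactions (40.35%) and 50.7% of anchors (60.8%). A tolerance of 1 bin gave RAD21 shares of 37.5% of interactions (49.96%) and 52.3% of anchors (67.6%). It turned the share of H3K27ac interactions called again to 59.85%, below the 67.6% of the others, whereas 10 or more contacts gave 49.9% (48.3%). The median H3K27ac log2 ratio was -0.27 with model scaling (others -0.22) and turned to 0.057 when divided by anchor coverage (others -0.02). Model scaling raised the called pairs at start-site anchors from 2 to 11 (over all pairs, 21 to 60) and the called bins from 5 to 83 (over all bins, 92 to 448), all 11 and 83 lower after IAA; a minimum of 20 contacts left both counts as they were. The core motif gave 60.2% on the strand of the gene. No paired analysis was possible because each group has 1 list in which its libraries are merged, so no library could be left out either. The cause of these differences was not tested. Single interactions had a median of 13 to 14 contacts, which limits the change that could be detected in any one of them.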

Other observations

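Ribosomal protein genes were among the lists with most start-site CTCF anchors, and 36 of the 38 with an anchor had a called H3K27ac interaction without IAA and 35 after it, beside 54.4% and 47.2% of all 5096 bins of 2 kb with a start-site CTCF anchor. Their interactions together went from 193 to 151, or 78.2% of the untreated number, beside 77.8% for the whole H3K27ac lists, which went from 36274 to 28210. The list was taken by gene name and includes Rpl7l1, a related gene, with 16 of the 193 and 15 of the 151. Rpl11, with 9 CTCF partners, went from 9 H3K27ac interactions with 117 contacts to 3 with 38. Rpl36, also with 9, went from 8 with 170 contacts to 6 with 91, and Rplp0, with 9, from 2 to 1. The 12 cohesin and CTCF genes went together from 36 to 31 (86.1%), and the 17 pluripotency genes from 133 to 101 (75.9%). These counts were read after the values were seen and have no test.

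Start-site anchors with starts on both strands, 407 in all, had a mean of 2.20 partners against 2.47 for those with starts on 1 strand, and a motif match in 6.39% (4.40 to 9.20) against 14.2% (13.3 to 15.2). Their RAD21 share as anchors was 42.3% (37.6 to 47.1), against 45.8% (44.4 to 47.2).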
